A study of Mus musculus with 32 samples.

Results

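The 201 numbered Zfp genes with a mean level of at least 2 FPKM in mouse embryonic stem cells (mESCs) were compared between WT cells and cells deficient in Eed. Numbered Zfp genes are those whose symbol is Zfp followed by a number alone. The deposited RNA-seq tables listed 331 of them among 24028 gene symbols. Zfp42 and Zfp57 were left out, and 130 numbered Zfp genes had a mean below 2 FPKM. FPKM counts sequenced fragments in proportion to transcript length and to the mapped total, so levels can be set beside each other between genes. The mean was taken over the same 2 libraries that are compared here, so the genes were selected on levels measured in both of them, and the levels are given as a description.

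The study asked what Polycomb does at DNA methylation valleys (DMVs), which are long regions of low DNA methylation around many developmental genes. EED is the subunit of Polycomb repressive complex 2 that binds methylated lysine 27 of histone H3. RNA was sequenced from 1 library of WT mESCs and 1 library of Eed-/- mESCs, both grown with serum and LIF on gelatin and both labelled as strain TT2, while Eed-/- cells in other assays of the study carry the strain label l7Rn5-3354SB. How many clones the Eed-/- cells came from is not given in the sources used here. The Eed transcript itself was at 63.0 FPKM in WT and 70.9 FPKM in the other library, so its level does not check the label. The other library is called the library labelled Eed-/- below. For its Eed-/- cells, the paper reports a check of the loss of Eed by western blot and ChIP-seq for the histone mark named above. Those assays do not read this RNA library. The 8 markers of pluripotent cells, Pou5f1, Nanog and Sox2 among them, summed to 1375 FPKM in WT and 1396 FPKM in the library labelled Eed-/-, and none was at 0. Within that sum Nanog (114 and 176 FPKM) and Dppa5a (250 and 372 FPKM) were lower in WT. The others, Utf1 (167 and 106 FPKM) among them, were higher in WT as deposited. After the scaling used below, Pou5f1 and Esrrb were instead slightly lower in WT, with changes in log2(FPKM + 1) of 0.14 and 0.13. The sum of 8 primitive endoderm markers was 15.5 and 57.2 FPKM, carried by Lama1 (8.25 and 33.5 FPKM) and Col4a1 (5.62 and 19.1 FPKM). The highest value of the other primitive endoderm markers was 1.35 FPKM, that of Gata4 in the library labelled Eed-/-. The sum of 7 trophoblast markers was 59.8 and 19.98 FPKM with Elf5 at 0 in both and Tfap2c (39.8 and 9.21 FPKM) as its largest term. That of 9 fibroblast markers was 2.96 and 10.1 FPKM with Dcn and Twist2 at 0 in both. The fibroblast sum was carried by Thy1 (0.98 and 6.97 FPKM) and Twist1 (1.24 and 2.88 FPKM), whereas Col1a1, Col1a2, Col3a1 and Postn were higher in WT, and the trophoblast markers Eomes and Hand1 were lower in WT. Their part in the differences below was not tested.

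C2H2 zinc fingers are short folds in which a pair of cysteines and a pair of histidines hold a zinc ion, and a row of them reads a stretch of DNA. Many Zfp proteins also carry a KRAB box at their N-terminal end. The KRAB box recruits TRIM28, also called KAP1, which brings the histone H3 lysine 9 methyltransferase SETDB1 and HP1 proteins to the bound site. In embryonic stem cells such KRAB zinc-finger proteins are known for silencing retroelements and for keeping methylation at imprinted genes. Their genes lie in tandem clusters that arose by duplication, and relatives within a cluster can be very similar in sequence.

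A KRAB A box, the part of the KRAB box that binds TRIM28, was found in the annotated coding sequence of 107 of the 201 genes. It was not found in 92 genes, and 2 genes (Zfp383 and Zfp65) could not be matched to the annotation by symbol. The coding sequences of 6 KRAB A boxes are shown because the box is what divides the family in the comparisons that follow. Zfp600, Zfp936, Zfp951 and Zfp809 were among the genes with the largest excess in the library labelled Eed-/-, Zfp568 had the highest level of all genes with a box, and Zfp1 was the only gene with a box that was at least 2-fold lower. Each runs 5′ to 3′ on the coding strand, and capitals mark the 52 of 120 bases that are the same in all 6.
Zfp600: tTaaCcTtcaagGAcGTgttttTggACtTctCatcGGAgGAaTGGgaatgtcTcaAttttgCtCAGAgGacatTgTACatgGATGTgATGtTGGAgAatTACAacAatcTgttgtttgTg
Zfp936: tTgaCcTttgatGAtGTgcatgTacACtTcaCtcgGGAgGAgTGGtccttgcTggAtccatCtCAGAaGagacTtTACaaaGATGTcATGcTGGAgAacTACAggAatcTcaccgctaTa
Zfp951: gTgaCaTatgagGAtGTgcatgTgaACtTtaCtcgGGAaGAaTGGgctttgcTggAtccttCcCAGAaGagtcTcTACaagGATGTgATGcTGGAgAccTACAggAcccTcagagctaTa
Zfp809: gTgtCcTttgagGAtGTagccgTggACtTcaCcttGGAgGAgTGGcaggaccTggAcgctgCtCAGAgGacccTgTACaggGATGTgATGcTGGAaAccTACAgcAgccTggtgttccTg
Zfp568: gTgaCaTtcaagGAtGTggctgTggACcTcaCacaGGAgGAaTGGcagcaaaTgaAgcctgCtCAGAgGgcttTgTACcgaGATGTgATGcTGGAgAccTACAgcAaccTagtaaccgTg
Zfp1: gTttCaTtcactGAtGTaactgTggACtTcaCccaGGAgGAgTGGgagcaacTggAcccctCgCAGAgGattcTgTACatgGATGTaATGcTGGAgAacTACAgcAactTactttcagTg
On NCBIM37, the assembly also called mm9, they lie at chr4:146160714-146160833 (plus strand, in exon 4 of 5 of the transcript), chr7:50442546-50442665 (plus, exon 1 of 4), chr5:105246017-105246136 (minus, exon 2 of 6), chr9:22039470-22039589 (plus, exon 1 of 7), chr7:30782775-30782894 (plus, exon 3 of 8) and chr8:114189984-114190103 (plus, exon 3 of 4), in the order shown. Identity between 2 of these boxes ran from 60% to 81.7%. At least 1 C2H2 finger was counted in all but 4 of the annotated genes (Zfp185, Zfp330, Zfp365 and Zfp850), with or without a box. The first C2H2 finger of Zfp936, at chr7:50444931-50444993, and that of Zfp281, a gene without a box, at chr1:138522640-138522702, are given with the codons of the zinc-binding cysteines and histidines in capitals.
Zfp936: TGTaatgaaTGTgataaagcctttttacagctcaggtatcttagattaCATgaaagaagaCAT
Zfp281: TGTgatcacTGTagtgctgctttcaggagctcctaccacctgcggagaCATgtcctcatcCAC

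The level of the family was low. The median gene was at 4.604 FPKM in WT and 4.72 FPKM in the library labelled Eed-/-, whereas the median of all 9410 genes with a mean of at least 2 FPKM was 11.2 and 10.1 FPKM. Genes with a KRAB box were lower, with a median of 3.26 FPKM in WT and 4.06 FPKM in the library labelled Eed-/-, than those without, at 6.73 and 6.49 FPKM. The 201 genes together held 1730 FPKM in WT and 1642 FPKM in the other library. Zfp207, which codes for a protein of the mitotic spindle and of splicing, stood far above the rest at 170 FPKM in WT and 141 FPKM in the library labelled Eed-/-. It was followed by Zfp428 at 67.6 and 62.8 FPKM. Zfp622, a factor in the maturation of the large ribosomal subunit, was at 49.4 and 34.7 FPKM. The other genes of the 10 highest were Zfp106, Zfp568, Zfp740, Zfp710, Zfp219, Zfp281 and Zfp553, with means between 23.8 and 41.6 FPKM, and Zfp568 was the only one of the 10 with a KRAB box. At the low end the choice cut through a continuous range. Zfp46, Zfp667, Zfp414, Zfp953 and Zfp109 were just inside with means of 2.00 to 2.09 FPKM, and Zfp738, Zfp607, Zfp689, Zfp949 and Zfp846 were just outside with means of 1.94 to 2.00 FPKM.

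To compare the libraries, the FPKM were quantile-normalized, and the change of a gene is its log2(FPKM + 1) in the library labelled Eed-/- minus that in WT. A change of 1 is 2-fold on this scale, and for genes with low values it gives less than the true ratio. With 1 library per genotype no test between genotypes could be made. The spacing of low FPKM values gave WT a depth of near 7240000 fragments and the other library one of near 6450000, and the median gene of the family rested on 103 and 97.9 fragments. From these numbers an exact 95% interval for counting error was set around each change. It leaves out the spread between cultures, which is unknown here. In RNA from a whole culture, fewer cells of a type and less RNA per cell cannot be told apart.

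The numbered Zfp genes had a median change of 0.14 (95% interval of the median over these genes 0.07 to 0.21), and that of all genes with a mean of at least 2 FPKM was 0.01. In the library labelled Eed-/-, 16 of 201 genes (7.96%) were at least 2-fold higher, beside 4.35% of all genes at this level. At least 2-fold lower were 4 genes (1.99%), beside 4.87% of all genes. The counting interval lay above 0 for 66 of 199 genes (33.2%, beside 30.4% of all genes) and below 0 for 42 (21.1%, beside 29.2%), and it held 0 for 91 genes. Of the 20 genes past 2-fold, 80% were thus on the high side. This split rested on the scaling, since the FPKM as deposited gave 8 higher and 7 lower genes (53.3% on the high side). Of all genes 3.33% were then higher and 7.02% lower, and the medians were 0.03 for the family and -0.15 for all genes. A level of at least 2 FPKM was reached in both libraries by 169 genes, in the library labelled Eed-/- alone by 22 genes and in WT alone by 10. Of those 22 genes 21 have a KRAB box, and of those 10 genes 4 have one.

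**Figure D1:**
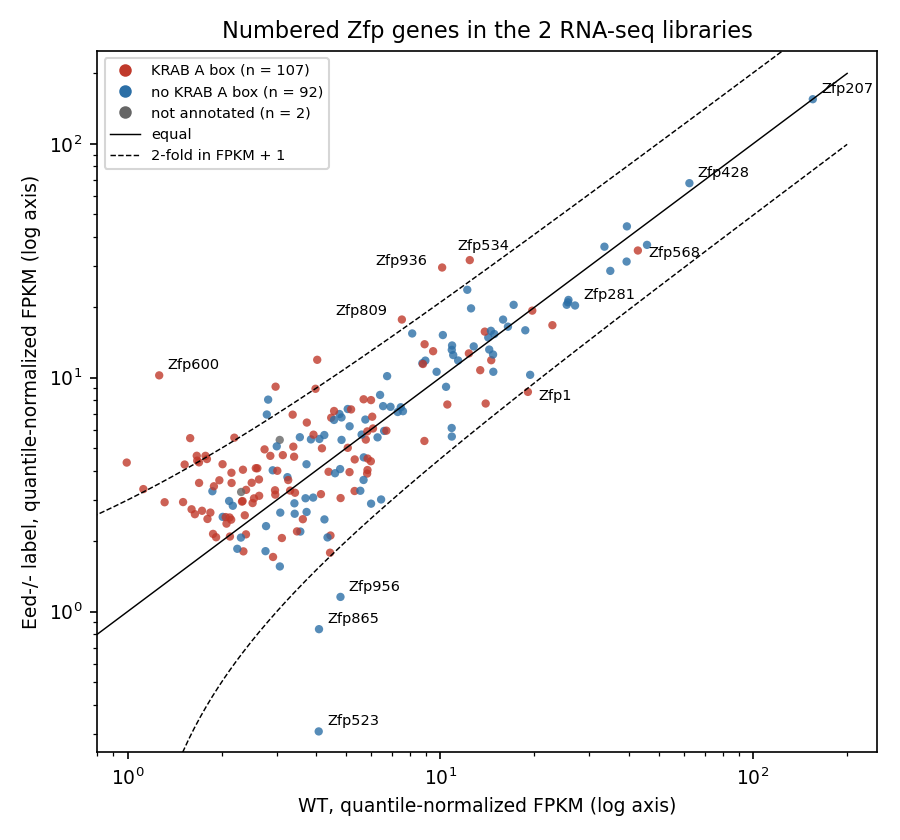
Level of the 201 numbered Zfp genes in WT (horizontal) and in the library labelled Eed-/- (vertical), in quantile-normalized FPKM on log axes, with 1 point per gene coloured by KRAB A box. Most points lie between the dashed 2-fold lines, 16 lie above the upper line, 14 of them with a KRAB box, and Zfp523 lies farthest below the lower line.

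Genes with a KRAB box had a median change of 0.25 (0.14 to 0.43, n = 107), and that of the genes without a box was 0.01 (-0.16 to 0.12, n = 92). Among those with a box 14 (13.1%) were at least 2-fold higher and 1 (0.93%) was at least 2-fold lower. Among those without a box the counts were 2 (2.17%) and 3 (3.26%), beside 4.35% and 4.87% of all genes. Counting intervals lay above 0 for 44 (41.1%) and below 0 for 16 (15.0%) of the genes with a box. Of the others they lay above 0 for 22 (23.9%) and below 0 for 26 (28.3%), beside 30.4% and 29.2% of all genes. The difference in medians was seen at low levels. At a mean of 2 to 5 FPKM the median change was 0.32 in 71 genes with a box and -0.19 in 36 without. At 10 FPKM and above it was 0.04 in 15 and 0.07 in 34. At a mean of at least 5 FPKM the medians were 0.0925 with a box and 0.0922 without. The share at least 2-fold higher went otherwise. With a box it was 11.3% at 2 to 5 FPKM, 14.3% at 5 to 10 FPKM and 20% (3 of 15) at 10 FPKM and above. Without a box it was 2.78%, 4.55% and 0% (0 of 34), beside 6.81%, 4.06% and 3.29% of all genes. Some genes reached 2 FPKM in the library labelled Eed-/- alone, 21 with a box and 1 without, and others in WT alone, 4 and 6. These passed the level through the library where they were higher, so the medians at low levels are a description only.

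GC content moved with this difference. The transcripts with a KRAB box had a median GC content of 43.6% and those without one of 50.2%, beside 50.6% for all genes at this level. Over the 199 annotated genes of the family the change correlated with GC content with a Pearson r of -0.60 and a Spearman rho of -0.64, a description across genes that share the same 2 libraries. Below 40% GC the median change was 0.66 for the 30 genes with a box and 0.42 for all 350 genes of such GC content. Between 40% and 45% it was 0.37 for 33 genes with a box, 0.36 for 19 genes without, and 0.15 for all 1522 genes. From 45% to 50% the values were -0.01 for 24 genes with a box and 0.10 for 23 without. At 50% and above both kinds leaned the other way, with medians of -0.26 (n = 20) and -0.19 (n = 47), beside -0.06 for all 4853 genes.

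When each change was taken relative to the median of all genes within the same 2 percentage points of GC content, an alternative chosen after seeing the data, the median of the family was 0.04 and that of the genes with a KRAB box was 0.08. The number at least 2-fold higher was then 5 of 199, all among the 16 above, and the number at least 2-fold lower was also 5, the 4 above and Zfp799. Of all genes 3.82% were at least 2-fold higher and 4.29% lower on this scale. The family and the other KRAB genes were counted in their own GC classes. Part of a change that they share is thus taken off with the class median. The class of Zfp600 and Zfp945 held 25 genes, and its median of 0.53 was the change of Zfp945 itself. The 5 higher genes were Zfp600 (1.78), Zfp59 (1.32), Zfp951 (1.09), Zfp809 (1.09) and Zfp275 (1.04).

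**Figure D2:**
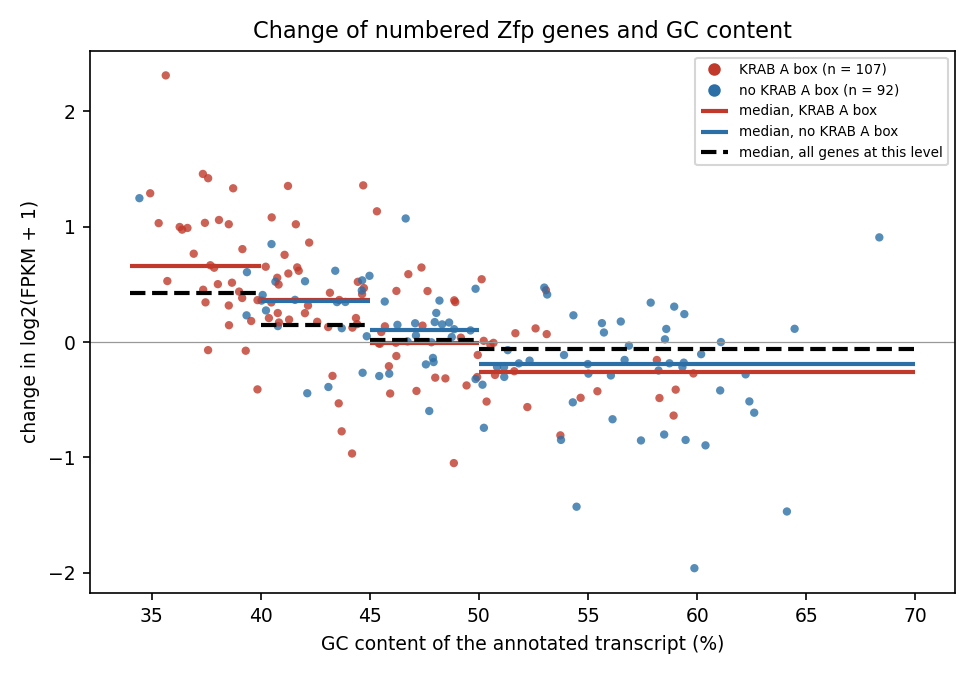
Change in log2(FPKM + 1) against the GC content of the annotated transcript for the 199 annotated numbered Zfp genes, with 1 point per gene. Coloured bars are medians of genes with and without a KRAB box in each GC class with at least 4 genes, the dashed bars are medians of all genes at this level, and all of them step down from left to right.

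The largest excess was that of Zfp600, on chromosome 4 of mm9 from 146124225 to 146166156. Zfp600 had 1.29 FPKM in WT and 9.71 FPKM in the library labelled Eed-/-, which stood for 37.1 and 248.8 fragments. Its change was 2.31 with a counting interval of 1.86 to 2.81. It was the only gene of the family past 3-fold on the high side on the log2(FPKM + 1) scale, while Zfp97 and Zfp229 were also past 3-fold in deposited FPKM. Its transcript has 3 near-identical copies elsewhere in the genome, so part of its reads may be those of relatives.

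Zfp936, on chromosome 7 from 50442540 to 50445851, had 10.7 FPKM in WT and 27.7 FPKM in the library labelled Eed-/-, a change of 1.46 (1.11 to 1.82). No near-identical copy of Zfp936 was found. Zfp534, a neighbour of Zfp600 with 3 near-identical copies, had 13.1 FPKM in WT and 29.5 FPKM in the library labelled Eed-/-, a change of 1.29 (1.08 to 1.51). Zfp936 and Zfp534 were thus well above the median level of genes with a KRAB box in both libraries. Zfp59 was at 4.21 and 11.3 FPKM (1.36, 1.05 to 1.69), with 1 near-identical copy. Zfp97, with 1 copy as well, was at 1.02 and 4.14 FPKM, and its interval of 0.83 to 2.13 around 1.42 is wide because 18.4 fragments supported it in WT. Zfp951 was at 3.10 and 8.71 FPKM (1.35, 0.76 to 2.01). Zfp229 and Zfp948, both in the cluster on chromosome 17 described below, went from 1.62 to 5.21 FPKM (1.33) and from 1.72 to 4.42 FPKM (1.08) between WT and the other library. All 8 genes from Zfp600 to Zfp948 have a KRAB box. Zfp654 had none, and it was at 2.91 FPKM in WT and 7.64 FPKM in the library labelled Eed-/- (1.25, 0.94 to 1.57), with the lowest GC content of the family (34.4%).

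Zfp809 completes the 10 largest. ZFP809 is known for binding the primer binding site of murine leukaemia viruses and for silencing them in embryonic stem cells. It was at 7.97 FPKM in WT and 16.7 FPKM in the library labelled Eed-/-, a change of 1.13 (0.69 to 1.59). Its GC content was 45.3%, and the 828 genes within the same 2 percentage points of GC content had a median change of 0.04. What GC content has to do with its change was not tested.

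**Figure D3:**
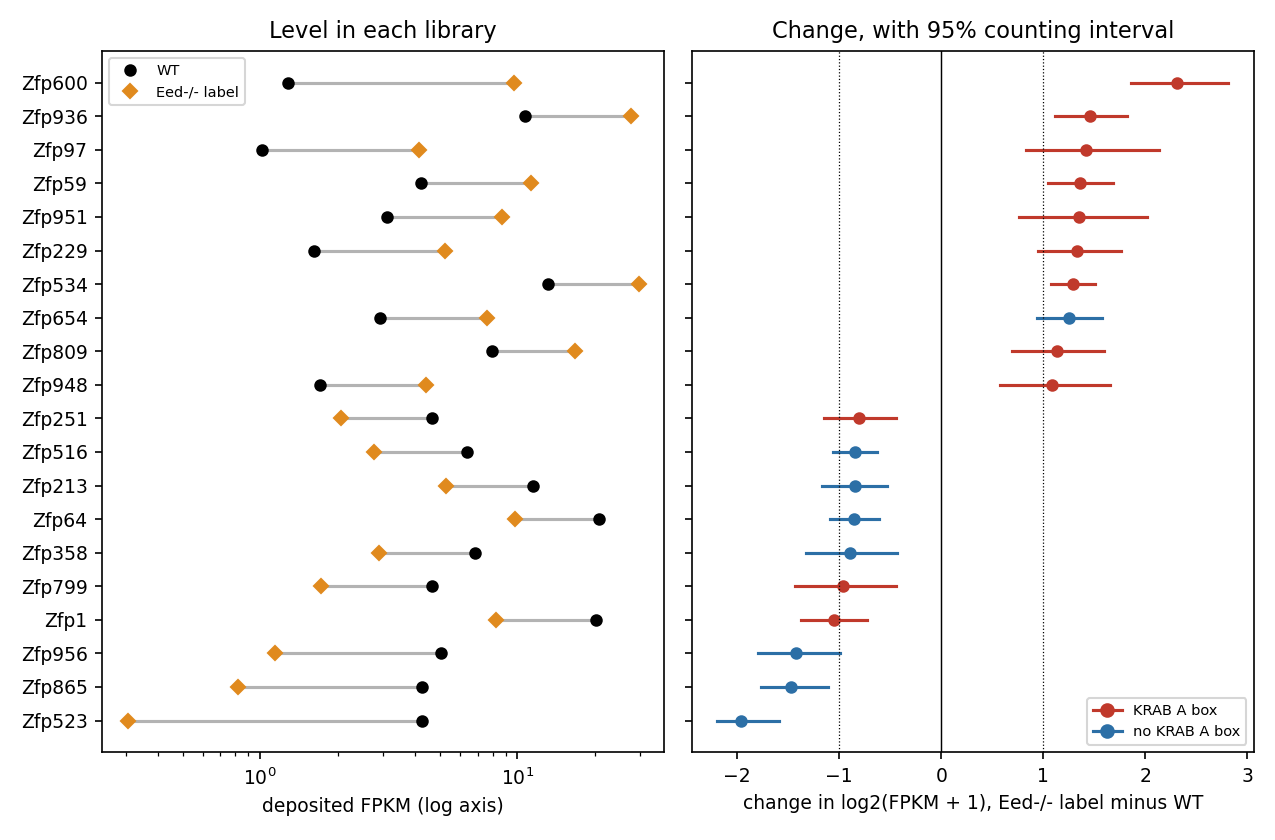
The 10 numbered Zfp genes with the largest excess and the 10 with the largest deficit in the library labelled Eed-/-. The left panel gives the deposited FPKM in each library on a log axis, and the right panel gives the change in log2(FPKM + 1) with its 95% counting interval, where the dotted lines mark 2-fold. In none of the 20 genes does the interval reach 0.

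On the low side, Zfp523 had the largest deficit. Zfp523, a relative of Zfp143 without a KRAB box, lies on chromosome 17 from 28314152 to 28342831. It was at 4.26 FPKM in WT and 0.31 FPKM in the library labelled Eed-/-, or 97.8 and 6.26 fragments, a change of -1.96 (-2.20 to -1.59). Zfp865 was at 4.27 and 0.82 FPKM, a change of -1.47 (-1.77 to -1.11). Zfp956, in a cluster on chromosome 6, was at 5.03 and 1.14 FPKM, a change of -1.43 (-1.80 to -0.997). These 3 genes have no KRAB box in the annotation used. Zfp1 has one and went from 20.3 FPKM in WT to 8.25 FPKM in the library labelled Eed-/- (-1.05, -1.37 to -0.73). It lies on chromosome 8, where the median change of all 520 genes was -0.47. The next 6 genes were short of 2-fold on the log2(FPKM + 1) scale, although each was past 2-fold in the ratio of deposited FPKM (0.37 to 0.47), and Zfp799, Zfp358, Zfp516 and Zfp251 were past it with a pseudocount of 0.1. They were Zfp799 (-0.97), Zfp358 (-0.90), Zfp64 (-0.85), Zfp213 (-0.85), Zfp516 (-0.85) and Zfp251 (-0.81), of which Zfp799 and Zfp251 have a KRAB box. The exons of Zfp213 overlap those of an annotated gene on the opposite strand over 46.8% of their length, and whether strand was used in counting is not given in the sources used here. Such overlap exceeded 10% in 13 of the annotated genes, among them Zfp106, Zfp593 and Zfp704, whose values are uncertain in the same way.

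Promoters were compared by their number of CG dinucleotides, the feature that marks CpG islands. The RefSeq table for GRCm38.p6 held a promoter for 165 of the 201 genes, and the median number in its 300-base window was 12 for genes with a KRAB box and 20 for genes without, beside 22 for all genes at this level. The change correlated with that number with a Spearman rho of -0.28 over the 165 genes, of -0.31 over the 92 with a KRAB box and of -0.04 over the 71 without. Shown as examples, and not as a comparison of the genes at both ends, are the 250 bases upstream of the start of Zfp600 (chr4:146156577-146156826), Zfp936 (chr7:43177340-43177589) and Zfp523 (chr17:28176946-28177195), all on the plus strand of GRCm38.p6, with CG in capitals.
Zfp600: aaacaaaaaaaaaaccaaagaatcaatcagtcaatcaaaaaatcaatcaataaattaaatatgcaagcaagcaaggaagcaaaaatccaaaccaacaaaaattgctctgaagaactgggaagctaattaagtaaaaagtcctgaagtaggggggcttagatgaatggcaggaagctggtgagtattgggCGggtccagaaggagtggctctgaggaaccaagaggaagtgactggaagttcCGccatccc
Zfp936: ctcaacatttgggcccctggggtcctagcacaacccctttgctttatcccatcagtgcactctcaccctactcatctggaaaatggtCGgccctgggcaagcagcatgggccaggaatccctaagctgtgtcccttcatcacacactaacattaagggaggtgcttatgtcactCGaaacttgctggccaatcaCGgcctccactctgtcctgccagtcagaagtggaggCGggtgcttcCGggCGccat
Zfp523: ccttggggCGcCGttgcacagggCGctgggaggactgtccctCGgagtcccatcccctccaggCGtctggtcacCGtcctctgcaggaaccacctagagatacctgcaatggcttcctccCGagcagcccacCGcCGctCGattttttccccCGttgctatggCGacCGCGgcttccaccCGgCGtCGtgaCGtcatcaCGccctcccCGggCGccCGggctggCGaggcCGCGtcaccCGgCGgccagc
CG occurs 2 times upstream of Zfp600, 6 times upstream of Zfp936 and 27 times upstream of Zfp523. The 2 letters CG are found in 94.2% of all 300-base promoter windows of that table, on both strands alike since the motif is its own reverse complement. What this count has to do with the change was not tested.

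The genes were also grouped by position along the genome. Chromosome 7 holds 51 of the annotated genes, with a median change of 0.05, close to the 0.02 of all genes there. Chromosome 17 holds 26, with a median change of 0.45 beside 0.05 for all 459 genes of that chromosome, and 19 of its 21 genes with a KRAB box were above 0. On chromosome 6 the 9 genes had a median of -0.48 beside 0.07. Chromosomes 1, 8 and X differed between the libraries as a whole, with medians over all genes of -0.44, -0.47 and 0.58. The 19 numbered Zfp genes on them included 1 gene at least 2-fold higher, Zfp275 on chromosome X (2.88 and 6.58 FPKM, 1.07), and 1 at least 2-fold lower, Zfp1.

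**Figure D4:**
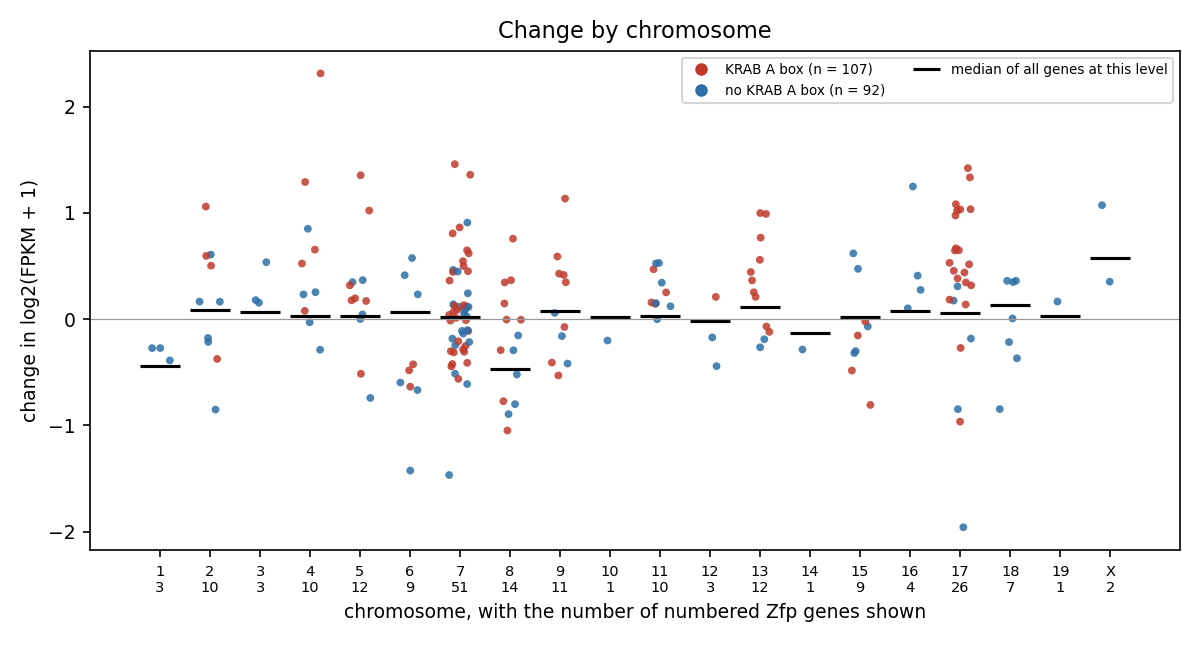
Change in log2(FPKM + 1) of the 199 annotated numbered Zfp genes by chromosome, with 1 point per gene and the number of genes under each chromosome. Black bars are the medians of all genes at this level on that chromosome, which are low on chromosomes 1 and 8 and high on X, and the points of chromosome 17 lie mostly above their bar.

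Of the genes, 79 lay in 12 tandem clusters, that is, runs of at least 4 with gaps under 1 Mb. The largest, on chromosome 17 from 21145905 to 23736454, held 12 of them, 11 with a KRAB box. Their median change was 0.60, 10 were above 0, 4 were at least 2-fold higher (Zfp229, Zfp948, Zfp758 and Zfp51), and 9 counting intervals lay above 0. Of all genes 4.35% were at least 2-fold higher and 30.4% had an interval above 0, and of those below 40% GC 11.1% and 60.6%. Relative to genes of like GC content the 4 were at 0.98, 0.82, 0.50 and 0.67, all short of 2-fold. The others in the cluster ran from -0.75 (Zfp213) to 0.39 (Zfp820) on that scale. The highest levels in this cluster were those of Zfp13 (15.3 FPKM in WT and 11.2 FPKM in the library labelled Eed-/-) and Zfp213, the only 2 of the 12 that were lower there than in WT, and they also had the highest GC content, 59.8% and 59.5%. A second cluster of chromosome 17, from 32908181 to 33768724, held 9 genes with a median of 0.32, and it included both Zfp81 (2.27 and 5.23 FPKM, 1.03) and Zfp799 (4.66 and 1.73 FPKM).

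On chromosome 6 from 47827203 to 48036592, all 5 genes had less RNA in the library labelled Eed-/-, and all 5 counting intervals lay below 0. They were Zfp956, Zfp746 (3.19 FPKM in WT and 1.52 FPKM in the other library, -0.67), Zfp777 (9.35 and 5.07 FPKM, -0.64), Zfp212 (6.18 and 3.74 FPKM, -0.48) and Zfp282 (3.24 and 2.00 FPKM, -0.43). Their GC content, between 54.5% and 58.9%, was above the median of the family. The 5 genes on chromosome 13 from 67418878 to 67654065, all with a KRAB box, were all higher, with a median of 0.36 and 3 intervals above 0. On chromosome 9 from 19445668 to 20325861 the 4 genes, all with a KRAB box as well, had a median of -0.24. Zfp426 (3.03 FPKM in WT and 1.65 FPKM in the other library, -0.53) and Zfp266 (11.1 and 7.25 FPKM, -0.41) had intervals below 0 at GC contents of 43.6% and 39.9%, that of Zfp26 held 0, and that of Zfp317 lay above 0 (9.36 and 13.2 FPKM, 0.59). The 11 genes on chromosome 7 from 30553571 to 30954746, among them Zfp568, had a median of -0.11, with 1 interval above and 1 below 0.

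KRAB genes with other names fill the stretch around Zfp600. On chromosome 4 from 145104787 to 147222475, a stretch chosen after its values were seen, 11 genes with a KRAB box had a mean of at least 2 FPKM, namely Zfp600, Zfp534, Zfp933 and 8 genes with provisional names. All 11 had more RNA in the library labelled Eed-/- and all 11 counting intervals lay above 0, with a median change of 1.29. At least 2-fold higher were 8 genes. The GC content of the 11 was between 34.6% and 40.2%, and 7 of them have near-identical copies. Of all genes below 40% GC, 60.6% had an interval above 0 and 11.1% were at least 2-fold higher. Relative to genes of like GC content, with these genes counted among them, the median was 0.76, 10 of 11 were above 0 and 4 were at least 2-fold higher. The largest change among them was that of Gm13247, at 6.24 FPKM in WT and 44.4 FPKM in the library labelled Eed-/- (2.84, 2.58 to 3.12).

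Near-identical copies were found for 16 of the 199 annotated genes, meaning a match of 95% identity or more over at least 80% of the transcript. The 12 of them with a KRAB box had a median change of 0.87, and 4 (33.3%) were at least 2-fold higher. Without them the 95 remaining genes with a box had a median of 0.19, with 10 higher (10.5%) and 1 lower (1.05%). Of all genes, once those with copies were left out, 4.22% were higher and 4.98% lower. The median GC content was 37.7% for the 12 and 44.4% for the 95. All genes below 40% GC had a median change of 0.42, and 11.1% of them were at least 2-fold higher.

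The change followed the number of fingers in part, with a Spearman rho of 0.27 over the 199 annotated genes. Genes with 15 or more C2H2 fingers had a median change of 0.35 (n = 39), those with 10 to 14 fingers 0.18 (n = 65), those with 3 to 9 fingers -0.01 (n = 78) and those with 0 to 2 fingers 0.12 (n = 17). The median GC content of these groups was 44.4%, 43.7%, 49.9% and 47.8%. Genes with a KRAB box had medians of 0.04 at 3 to 9 fingers (n = 30), 0.25 at 10 to 14 (n = 48) and 0.44 at 15 or more (n = 28). Their rho was 0.26, and the median GC content of these 3 groups was 47.4%, 43.1% and 41.2%. Among the genes without a KRAB box the order was not the same, with a rho of 0.07. The 11 with 15 or more fingers had a median of -0.11 and the 17 with 10 to 14 fingers one of 0.11.

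The genes were then read by what their proteins are known to do. Of 8 genes listed as repressors of retroelements or of imprinted genes, 7 were at the level of 2 FPKM. Their median change was 0.32, with a range of -0.29 to 1.35. At least 2-fold higher were 2 of these 7 (28.6%, Zfp809 and Zfp951), and none was lower, beside 4.35% and 4.87% of all genes. The list was chosen with earlier results of these data known. Zfp568, which restrains a placental transcript of Igf2, was at 45.8 FPKM in WT and 32.6 FPKM in the library labelled Eed-/- (-0.28, -0.38 to -0.19). Zfp445, a guardian of imprints, was at 9.96 and 12.3 FPKM (0.42, 0.15 to 0.68). Zfp568 was thus lower and Zfp445 higher in the library labelled Eed-/-. Zfp819 (6.19 and 5.55 FPKM, 0.01) and Zfp932 (3.13 and 3.84 FPKM, 0.32), which has a near-identical copy, had intervals that held 0. Zfp961, on chromosome 8 with its median of -0.47, was at 14.1 and 10.2 FPKM (-0.29), and Zfp708 was below the level at 1.44 and 1.95 FPKM.

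None of the 6 genes listed for a part in stem cell identity was past 2-fold. Zfp281, a partner of NANOG, was at 28.9 FPKM in WT and 19.0 FPKM in the library labelled Eed-/- (-0.39, -0.53 to -0.25), on chromosome 1 with its median of -0.44. Zfp217 was at 15.5 and 11.9 FPKM (-0.22), and Zfp462, which guards heterochromatin, was at 11.5 and 12.5 FPKM (0.25, 0.12 to 0.38). The intervals of Zfp207, of Zfp296 (18.1 and 19.2 FPKM) and of the transcriptional activator Zfp143 (12.1 and 11.2 FPKM) held 0.

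The 9 genes analysed for RNA and translation were within 2-fold on the log2(FPKM + 1) scale. Zfp622 was lower (-0.30, -0.45 to -0.16), and Zfp598, which senses collided ribosomes, was at 11.5 FPKM in WT and 13.02 FPKM in the library labelled Eed-/- (0.31, 0.07 to 0.55). Zfp106 was at 42.04 and 41.25 FPKM (0.16) and Zfp326, a splicing factor, at 4.45 and 5.36 FPKM (0.35, 0.07 to 0.64). Zfp593, Zfp346, Zfp830 and Zfp318 had intervals that held 0. Zfp36, which destabilizes mRNAs with AU-rich elements, was below the level at 1.48 and 0.49 FPKM (-0.72, -1.11 to -0.03), and its change was -1.39 with a pseudocount of 0.1 in place of 1.

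Developmental regulators were mostly low. Of 10 listed, Zfp503, Zfp521, Zfp536, Zfp608 and Zfp703 were below the level, at no more than 0.60 FPKM in either library, and the highest was Zfp710 at 35.86 FPKM in WT and 34.01 FPKM in the library labelled Eed-/- (0.11, -0.01 to 0.23). Zfp516, a regulator of brown fat, had the largest change of the 10 on the log2(FPKM + 1) scale (6.37 and 2.78 FPKM), whereas with a pseudocount of 0.1 Zfp703 (1.77) and Zfp521 (-1.19) exceeded it. Zfp423, known from the cerebellum and fat, was at 6.68 and 5.25 FPKM (-0.15), Zfp609 at 3.20 and 2.56 FPKM (-0.16) and Zfp704 at 3.88 and 4.07 FPKM (0.15). Of the 6 partners of chromatin complexes, the SUMO ligase Zfp451 (27.2 and 19.6 FPKM, -0.27) and Zfp532 (19.8 and 15.1 FPKM, -0.22) had intervals below 0, as had Zfp827 below the level (1.64 and 0.90 FPKM). Zfp451 lies on chromosome 1 and Zfp827 on chromosome 8, where all genes at the level had medians of -0.44 and -0.47. Zfp592 (2.86 and 2.25 FPKM) and Zfp687 (6.93 and 7.13 FPKM), which join Zfp532 in a complex with ZMYND8, had intervals that held 0, and Zfp711 on chromosome X, below the level at 0.40 and 0.90 FPKM, had an interval above 0 (0.05 to 1.11).

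The machinery that KRAB boxes recruit was expressed in both libraries. Of 16 genes of the TRIM28 pathway none was past 2-fold and 1 was past 1.5-fold. Trim28 was at 513 FPKM in both libraries as deposited, and its change after normalization was 0.22 (0.18 to 0.26). Setdb1 was at 39.6 FPKM in WT and 27.6 FPKM in the library labelled Eed-/- (-0.32, -0.44 to -0.21). The gene past 1.5-fold was Atf7ip, a partner of SETDB1, at 7.52 and 10.6 FPKM (0.59, 0.36 to 0.82).

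As the study is about DMVs, the genes were divided by its list of DMV genes in mESCs. Of the 201 genes 24 were on that list. Their median change was 0.02 (-0.25 to 0.17) and none was past 2-fold. The 177 others had a median of 0.16, with 16 higher (9.04%) and 4 lower (2.26%). All 1286 DMV genes at this level had a median of -0.004, with 48 higher (3.73%) and 70 lower genes (5.44%). The largest changes among the 24 were those of Zfp292, which was at 8.56 FPKM in WT and 14.7 FPKM in the library labelled Eed-/- (0.85), and of Zfp516. Only 5 of the 24 have a KRAB box, and the median GC content of the 24 was 50.8% beside 45.9% for the others.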

How the data were processed

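RNA-seq libraries of WT and Eed-/- mESCs, 1 per genotype, were used. The protocol removes ribosomal RNA and keeps strand. Deposited were FPKM by symbol, which the authors made by mapping reads to mm9 with TopHat and quantifying them with Cufflinks (TopHat2 2.0.11 and Cufflinks 2.2.1 in the submitters' processing notes). The options and annotation are not given in the sources used here. The other assays of the study were not analysed here.

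Repeated symbols (268) were summed, which touched none of the 201 genes. The 2 libraries were quantile-normalized over all symbols, and the change is the difference in log2(FPKM + 1), with a threshold of 2-fold. Positions, GC content and coding sequences came from GENCODE vM1 (NCBIM37), matched by symbol. KRAB A boxes were called with HMMER 3.4 (E-value 1e-05 at most) with a profile of 40 residues built from 119 sequences, fingers with a C2H2 pattern, and near-identical copies with minimap2 2.31. Depth came from low values of genes with 1 transcript (1000 bp or longer), each shortened by 180 bp. In WT 80.5% of 841 such values, and in the other library 80.6% of 943, were within 0.1 of whole fragments, where chance gives 20%. Counting intervals are exact binomial (Clopper-Pearson) and intervals of medians come from order statistics, both at 95%. PCR duplicates cannot be told apart, so both cover counting or gene-to-gene spread only. For genes with several transcripts these numbers are approximate.

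The genes and lists were chosen with earlier results of these data known. Genes named were the 10 highest, the 10 largest rises, the 10 largest falls, the role lists, the 5 on either side of the level, Trim28, Setdb1 and pathway genes past 1.5-fold. Others are named as members of a cluster or a count, or were chosen after their values were seen, and 1 listed gene is not analysed here. The computations were tested on simulated data. Python 3.11.15, numpy 2.4.6, pandas 2.3.3 and scipy 1.17.1 were used. Alternatives were no scaling, median-ratio scaling, other pseudocounts, levels and thresholds, and leaving out genes with copies or on chromosomes 1, 8 and X. Centring by chromosome or GC content was added after seeing the data.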

Additional observations from a re-analysis of the deposited data

How the results depend on the processing

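No paired analysis was possible because each genotype has 1 RNA-seq library, and for the same reason no replicate could be left out. The count of genes at least 2-fold higher, 16, became 8 with the FPKM as deposited, 7 at a mean of at least 5 FPKM, 36 at 1.5-fold, 1 at 3-fold and 5 relative to genes of like GC content. The count at least 2-fold lower, 4, became 7 with the FPKM as deposited, 9 with a pseudocount of 0.1 or 0.01, 1 at a mean of at least 5 FPKM, 17 at 1.5-fold and 1 at 3-fold. Background shares of all genes, higher and lower, moved as well. They were 3.33% and 7.02% with the FPKM as deposited and 3.52% and 4.34% at a mean of at least 5 FPKM. With a pseudocount of 0.1 they were 5.98% and 6.95%, and with 0.01 they were 6.08% and 7.21%. At 1.5-fold they were 13.2% and 14.1%, and at 3-fold 1.40% and 1.36%. Relative to genes of like GC content they were 3.82% and 4.29%, and relative to the chromosome median 3.72% and 4.14%. The level of 5 FPKM left 92 genes of the family. With a pseudocount of 0.1 the higher genes of the family were 23 (71.9% on the high side), and relative to the chromosome median they were 11 against 4 (73.3%). The median change of the family, 0.14, became 0.0299 with the FPKM as deposited and 0.0412 relative to GC content. As deposited the median of all genes was -0.146, and the family lay 0.176 above it, beside 0.132 in the main setting. The median of genes with a KRAB box, 0.25, became 0.0925 at a mean of at least 5 FPKM and 0.0835 relative to GC content. With the FPKM as deposited it was 0.173, and that of genes without a box was -0.13. The difference between the 2 kinds was then 0.303, beside 0.237 in the main setting. It was 0.0003 at a mean of at least 5 FPKM and 0.0889 relative to GC content. No gene past 2-fold among the 74 named changed sign under another scaling or pseudocount, and 7 of the 74 did so with the FPKM as deposited. Without replicates, differences between the 2 cultures other than genotype cannot be told apart from it, and the counting interval of 91 of 199 genes held 0.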

Other observations

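KRAB genes outside the numbered series had a larger median change than those within it. Of genes with other names, 33 had a KRAB A box and a mean of at least 2 FPKM. Their median change was 0.93 (0.68 to 1.10). In the library labelled Eed-/- 12 (36.4%) were at least 2-fold higher and none lower, beside 4.35% and 4.87% of all genes. Counting intervals lay above 0 for 25 of them (75.8%) and below 0 for 1 (3.03%), beside 30.4% and 29.2% of all genes. The median GC content of the 33 was 38.6%, and 17 have near-identical copies. Of all genes below 40% GC, 60.6% had an interval above 0 and 11.1% were at least 2-fold higher. Relative to genes of like GC content, with these genes counted among them, the median was 0.51 over all 33. It was 0.31 over the 16 without copies and 0.68 over the 17 with copies. On this scale 27 of 33 were above 0 and 6 were at least 2-fold higher, all of these with copies. These genes were set beside the numbered ones after earlier results were known, and no test was made.

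Other zinc-finger families had medians below that of these 33 genes. The 29 Zbtb genes had a median change of 0.17 with 1 at least 2-fold higher, the 13 Klf genes 0.40 with 1 higher, the 8 Zscan genes -0.19 and the 7 Zkscan genes -0.05 with none past 2-fold. The 12 Zfp genes with a letter after the number had a median of 0.38. Some Zkscan and lettered Zfp genes carry a KRAB box and are also among the 33. In 117 other genes with at least 3 C2H2 fingers and no KRAB box the median was 0.09. Of them 5 (4.27%) were higher and 3 (2.56%) lower, beside 4.35% and 4.87% of all genes.

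Numbered Zfp genes below the level leaned the same way by KRAB box in their medians as those at the level, but most of their counting intervals held 0. Of the 130, 114 had a mean of at least 0.1 FPKM. The 71 with a KRAB box had a median change of 0.19 (0.03 to 0.26) and the 39 without one of -0.03 (-0.21 to 0.12). On this scale the pseudocount holds such values near 0. With a box, 4 of 70 intervals lay above 0 (5.71%) and 3 below (4.29%). Without a box, 5 of 39 lay above 0 (12.8%) and 8 below (20.5%). The shares of all genes with a mean of 0.1 to 2 FPKM were 12.8% and 17.7%. All 5432 genes with a mean of 0.1 to 2 FPKM had a median of 0.01, with 2.85% at least 2-fold higher and 2.43% lower, and none of the 114 was past 2-fold. The median GC content was 42.8% with a box and 53.1% without. Of all 331 numbered genes 10 were listed at 0 in both libraries, 4 in WT only and 3 only in that labelled Eed-/-.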
